A study of Homo sapiens with 15 samples.

Results

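The smooth muscle contractile genes followed here are ACTA2, ACTG2, MYH11, MYL9, TPM1, TPM2, CALD1, CNN1, TAGLN and LMOD1, taken by their symbols, 10 of the 17138 genes listed in the deposited tables. All 10 were listed for MRC5 cells and 9 for H196 cells, whose table did not list MYH11. The fibroblast line MRC5, from human lung, was cultured by itself (MRC5_Mo), opposite the neuroendocrine (NE) small cell lung cancer (SCLC) line H69 (MRC5_coH69) or opposite the non-NE SCLC line H196 (MRC5_coH196). The H196 line was likewise cultured by itself (H196_Mo) or opposite MRC5 (H196_Co). Each culture lasted 7 days, a transwell insert with pores of 0.4 µm kept the partners apart, and each group had 3 libraries of oligo(dT)-captured mRNA. The labels name no added gene or agent. The lines are routinely kept in different media, MEM for MRC5 and RPMI for the SCLC lines, and the medium shared during co-culture is not given in the sources used here. The study describes the 3 libraries of a group as parallel replicates without saying whether they came from separate cultures, so the p-values measure the spread between these libraries, which may be technical.

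Smooth muscle contracts when myosin filaments pull on actin filaments, and the actin and myosin forms it uses are encoded by a small group of genes that fibroblasts also switch on when they become contractile myofibroblasts. Calcium acts on the thick filament, where myosin light chain kinase phosphorylates the regulatory light chain, and on the thin filament, where tropomyosin, caldesmon and calponin lie along actin. Many of these genes carry CArG boxes near their start, which serum response factor (SRF) binds together with myocardin or the myocardin-related factors MRTFA and MRTFB. ACTA2 encodes α-smooth muscle actin (α-SMA), the protein most often used to mark myofibroblasts and cancer-associated fibroblasts (CAFs).

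The stretches upstream of ACTG2 and ACTA2 are shown because these paralogous actins had similar levels in MRC5_Mo and fell to different extents in MRC5_coH196, and each carries a pair of CArG-like words in the same interval. A CArG box is 10 bases long, CC and GG around a run of A and T, and it reads alike on both strands. RefSeq windows of 300 bases around the gene start (GRCh38.p14) were at hand for 7 of the 10 genes, in 12 windows. TAGLN, MYL9 and MYH11 were not among them. Both stretches are 100 bases long, run from position -150 to -51 counted from the start of the transcript, and have every match with at most 1 mismatch in capitals.
ACTG2, chr2:73892858-73892957, plus strand: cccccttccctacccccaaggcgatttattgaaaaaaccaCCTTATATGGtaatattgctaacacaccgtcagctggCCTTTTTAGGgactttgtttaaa
ACTA2, chr10:88952824-88952923, minus strand: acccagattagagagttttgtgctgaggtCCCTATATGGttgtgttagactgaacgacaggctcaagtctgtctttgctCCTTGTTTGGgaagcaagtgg
In ACTG2 both words, at positions -110 and -73, matched the box exactly, and in ACTA2 both words, at -121 and -71, had 1 mismatch. ACTA2 has 2 RefSeq starts here, and the window of the other start held no match. An exact box was present in 1.29% of all 35116 RefSeq windows and, among the members with a window, only in ACTG2. With 1 mismatch allowed, 18.9% of all windows and 5 of the 12 member windows had a match, which is 22.3% of all genes and 4 of the 7 members (ACTG2, ACTA2, LMOD1 and CALD1). A match is a description of the letters and not evidence of binding.

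The MRC5 libraries held 18476890 to 19170560 counts and the H196 libraries 16073597 to 17358349. The 10 contractile genes took 0.854% ± 0.0019 of the counts in MRC5_Mo (SD, n = 3, as throughout), 0.952% ± 0.031 in MRC5_coH69 and 0.799% ± 0.011 in MRC5_coH196, and the 9 listed genes took 0.0729% ± 0.0038 in H196_Mo and 0.0791% ± 0.0060 in H196_Co. All 10 fibroblast markers fixed for the check of the cell type (COL1A1, DCN, THY1, PDGFRA and others) exceeded 1 CPM (counts scaled by the total of the library) in every MRC5 library, against 2 of 10 in the H196 libraries. The neuroendocrine markers summed to at most 1.5 CPM in MRC5 cells and to 64.8 to 69.7 CPM in H196 cells. The 95 genes that were clearly expressed in H196 and nearly absent from MRC5_Mo summed to 8.96 to 9.94 CPM in MRC5_Mo, 8.34 to 10.4 CPM in MRC5_coH69 and 23.7 to 61.8 CPM in MRC5_coH196, beside 7747 to 8033 CPM in H196_Mo.

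The members were expressed at very different levels in MRC5_Mo. FPKM, fragments scaled by transcript length and by the mapped fragments of the library, is used to compare genes. TPM2 led with 2183 ± 29.6 FPKM, followed by TPM1 with 724 ± 15.5 and TAGLN with 707 ± 13.9, whose libraries overlapped, and by MYL9 with 422 ± 4.24. ACTA2 followed with 391 ± 10.04 FPKM, ACTG2 with 342 ± 1.85 and CALD1 with 248 ± 6.19, and their libraries did not overlap. CNN1 had 77.2 ± 2.98 and LMOD1 31.6 ± 1.04 FPKM. MYH11, the heavy chain that defines differentiated smooth muscle, stood at 0.110 ± 0.020 FPKM. The plot of FPKM by library shows all 10 genes in the 5 groups.

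**Figure D1:**
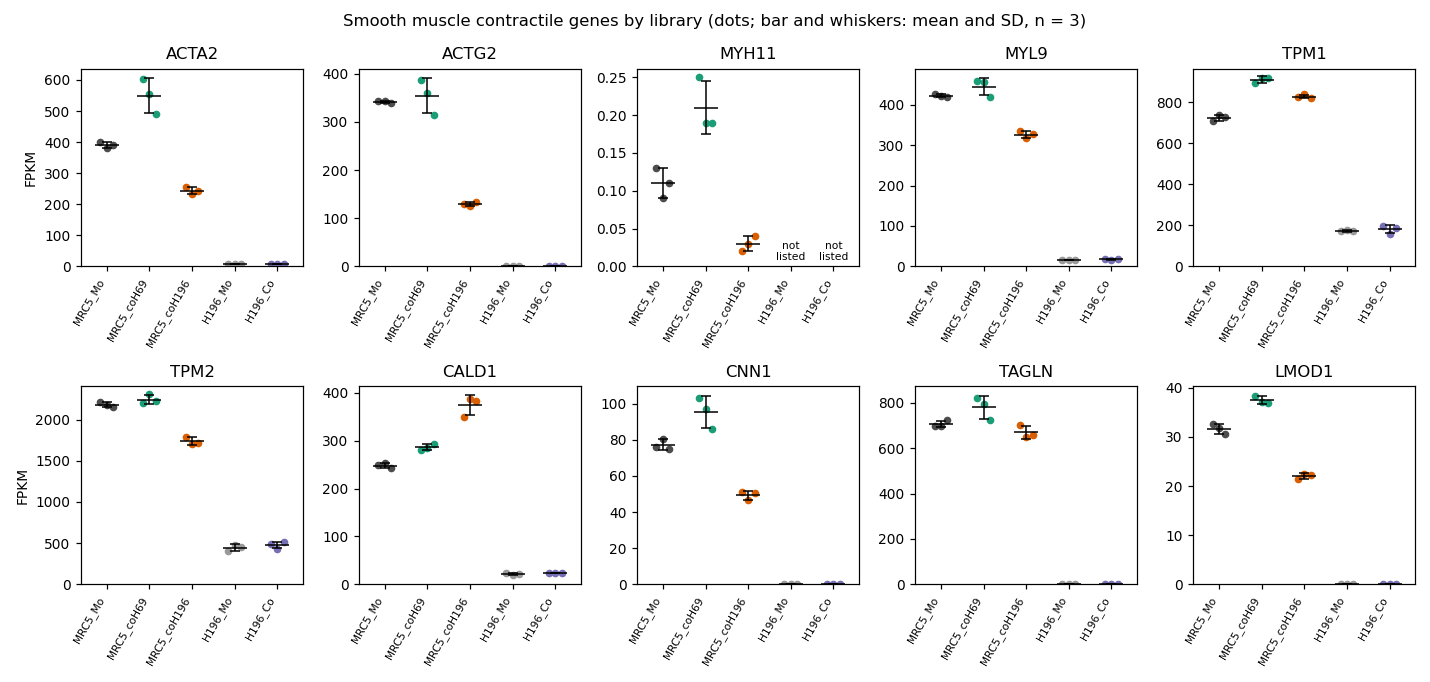
FPKM (vertical axes, linear, each from 0) of the 10 contractile genes in each library (dots) of the 5 groups, with the mean and SD of 3 libraries as bar and whiskers. MRC5_coH196 lies below MRC5_Mo for most genes, most clearly for ACTG2 (130 against 342 FPKM), and above it for TPM1 and CALD1, while H196 cells are near 0 for most genes and reach 478 FPKM for TPM2.

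Co-culture with H196 moved the contractile genes of MRC5 cells in both directions. A gene is called when its Benjamini-Hochberg adjusted p in edgeR's quasi-likelihood test is under 0.05 and its log2 fold change is beyond 0.58 in size. By this rule 3 of the 10 genes were called, ACTG2 and MYH11 lower and CALD1 higher, where 31.9% of the 12819 tested genes were called (17.2% higher and 14.7% lower). The share of members called is thus near that of all genes. At an adjusted p under 0.05 alone, 7 genes were lower (ACTA2, ACTG2, MYH11, MYL9, TPM2, CNN1 and LMOD1) and 2 higher (TPM1 and CALD1), where 37.1% of all genes were lower and 37.2% higher. The same 9 genes had libraries that did not overlap with those of MRC5_Mo in CPM, here with the library totals adjusted by edgeR's TMM factors. Among all genes this held for 37.9% on the lower and 37.7% on the higher side. The median log2 fold change was -0.27 for the 10 genes and -0.003 for all tested genes. The fibroblast markers summed to 21655 to 22849 CPM in MRC5_coH196 and to 33719 to 36420 CPM in MRC5_Mo. The largest falls within that sum were those of the collagens COL1A1 (4419 CPM in MRC5_coH196 against 14800 CPM in MRC5_Mo on average) and COL1A2 (5702 against 9459 CPM), while VIM had 9068 against 6631 CPM. Of the 10 markers 6 were higher, among them PDGFRB (0.67 ± 0.045) and VIM (0.63 ± 0.040), and 3 lower at an adjusted p under 0.05, with a median log2 fold change of 0.15. The part of these markers in the result was not tested. In bulk libraries fewer cells of a type and less RNA per cell cannot be told apart. The log2 fold changes rest on the TMM scaling factors. With library totals alone the median of all genes in this comparison was -0.18 and ACTA2 and CNN1 were also called, which makes 5 of 10. Of the 12819 tested genes, 1530 were then called higher and 2978 lower, against 2207 and 1885 with TMM.

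The smooth muscle actins fell to different extents. ACTA2 (gene 59, chr10:88935074-88991397, GRCh38.p13) had 401, 381 and 390.3 FPKM in MRC5_Mo, 604, 555 and 491 FPKM in MRC5_coH69, and 254, 233 and 242 FPKM in MRC5_coH196. The 3 groups did not overlap, with MRC5_coH69 the highest and the most spread and MRC5_coH196 the lowest. Against MRC5_Mo its log2 fold change was -0.46 ± 0.058 (SE) in MRC5_coH196 (adjusted p = 1.22e-07), a level 0.729 times that of MRC5_Mo, and 0.49 ± 0.057 in MRC5_coH69 (adjusted p = 2.49e-06), 1.40 times. The study, by contrast, reports more α-SMA in MRC5 cells co-cultured with H196, where its western blot measured the protein. The values here are of mRNA, an unlike measure, and why they differ was not tested. ACTG2, which encodes the γ-smooth muscle actin of the gut (gene 72, chr2:73893008-73919865), had 343, 343 and 339.7 FPKM in MRC5_Mo, 388, 361 and 315 FPKM in MRC5_coH69, and 130.1, 125 and 134 FPKM in MRC5_coH196. The MRC5_coH196 libraries lay far below all others, whereas those of MRC5_coH69 overlapped with MRC5_Mo. Its log2 fold change was -1.22 ± 0.057 in MRC5_coH196 (0.428 times, adjusted p = 9.85e-16) and 0.06 ± 0.055 in MRC5_coH69 (95% interval -0.06 to 0.17, adjusted p = 0.632), and the latter turned to -0.014 without MRC5_coH69 replicate 1. No 50-base word of the ACTA2 transcripts and 2 of 2781 words of the ACTG2 transcripts occur in protein-coding transcripts of another gene in GENCODE 29.

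The thick filament was represented by an abundant light chain and a heavy chain near the detection limit. MYL9, the regulatory light chain that myosin light chain kinase phosphorylates (gene 10398, chr20:36541519-36551447), had 427, 421 and 419 FPKM in MRC5_Mo, 459.8, 455 and 419.7 FPKM in MRC5_coH69, and 335, 317 and 327 FPKM in MRC5_coH196. It fell by 0.20 on the log2 scale in MRC5_coH196 (SE 0.044, adjusted p = 0.000254), and its difference of 0.09 ± 0.044 in MRC5_coH69 did not pass the test (adjusted p = 0.279). MYH11 (gene 4629) had 16, 11 and 14 counts in MRC5_Mo, 31, 23 and 22 in MRC5_coH69 and 3, 4 and 4 in MRC5_coH196. The groups did not overlap, although each rests on few counts. Summed over the libraries, the level in MRC5_coH196 was 0.265 times that in MRC5_Mo (exact 95% interval from the counts 0.123 to 0.525) and the level in MRC5_coH69 1.84 times (1.25 to 2.77), and these intervals cover counting error only. Its log2 fold change was -1.71 ± 0.42 in MRC5_coH196 (adjusted p = 0.000762) and 0.89 ± 0.27 in MRC5_coH69 (adjusted p = 0.0473). The call in MRC5_coH196 was lost on log2(FPKM + 1) (-0.11, adjusted p = 0.0523), and the gene drops out where at least 10 counts in every library are required. MYH11 shares 0.733% of its 50-base words with the non-muscle heavy chain genes MYH9 and MYH14, so a few of its reads could have been split with MYH9, whose log2 fold change in MRC5_coH196 was 0.54 ± 0.046.

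The tropomyosins, the rods that lie along actin, moved in opposite directions. TPM1 (gene 7168, chr15:63042698-63071915) had 706, 736 and 729 FPKM in MRC5_Mo, 893, 921 and 918 FPKM in MRC5_coH69, and 823, 838 and 821 FPKM in MRC5_coH196. The 3 groups did not overlap, and both co-cultures were above MRC5_Mo, with log2 fold changes of 0.43 ± 0.038 in MRC5_coH196 (adjusted p = 2.44e-10) and 0.34 ± 0.038 in MRC5_coH69 (adjusted p = 1.28e-06). TPM2 (gene 7169, chr9:35681993-35690056) had 2215, 2178 and 2157 FPKM in MRC5_Mo, 2199.6, 2309 and 2227 FPKM in MRC5_coH69, and 1792, 1710.1 and 1712 FPKM in MRC5_coH196. Only the MRC5_coH196 libraries lay apart, and TPM2 fell by 0.15 on the log2 scale there (SE 0.041, adjusted p = 0.00172), while its difference in MRC5_coH69 was 0.04 ± 0.041 (adjusted p = 0.619). Both genes make muscle and non-muscle isoforms, and the deposited values sum over isoforms.

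The proteins that bind actin along the filament also diverged. CALD1, caldesmon, which holds back actomyosin until calcium releases it (gene 800, chr7:134727117-134970729), had 248, 254 and 242 FPKM in MRC5_Mo, 281, 285 and 293 FPKM in MRC5_coH69, and 350.3, 388 and 384 FPKM in MRC5_coH196. It was the only called member that rose in MRC5_coH196, with a log2 fold change of 0.77 ± 0.042 (1.70 times, adjusted p = 2.05e-14), and it was 0.22 ± 0.042 higher in MRC5_coH69 (adjusted p = 0.00136). As for the tropomyosins, the deposited CALD1 values sum over isoforms and cannot show which form rose. H196 cells contain less CALD1 (20.8 FPKM in the median H196_Mo library) and less TPM1 than MRC5 cells do. CNN1, calponin, a thin filament protein used as a marker of contractile smooth muscle (gene 1264, chr19:11538775-11550323), had 75.9, 80.7 and 75.2 FPKM in MRC5_Mo, 103, 97.3 and 85.8 FPKM in MRC5_coH69, and 51.0, 46.6 and 50.3 FPKM in MRC5_coH196. Its groups did not overlap, and its log2 fold changes of -0.46 ± 0.060 in MRC5_coH196 (adjusted p = 1.73e-07) and 0.31 ± 0.057 in MRC5_coH69 (adjusted p = 0.00106) had opposite signs, as those of ACTA2 did.

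TAGLN, transgelin or SM22α, an actin cross-linker (gene 6876, chr11:117199294-117210292), had 698, 699 and 723 FPKM in MRC5_Mo, 823, 794 and 724 FPKM in MRC5_coH69, and 704, 650.3 and 657 FPKM in MRC5_coH196. Its MRC5_coH196 libraries overlapped with MRC5_Mo, the log2 fold change of 0.10 ± 0.048 did not pass the test (95% interval -0.002 to 0.20, adjusted p = 0.0707), and its sign turned to -0.08 with library totals or FPKM. In MRC5_coH69 it was 0.16 ± 0.048 (adjusted p = 0.0495), at the edge of the threshold, with adjusted p from 0.0286 to 0.163 over the other settings tried. LMOD1, leiomodin, which nucleates actin filaments in smooth muscle (gene 25802, chr1:201893842-201946548), had 32.6, 31.7 and 30.5 FPKM in MRC5_Mo, 38.4, 37.1 and 36.9 FPKM in MRC5_coH69, and 21.4, 22.4 and 22.3 FPKM in MRC5_coH196. The groups were far apart relative to their spread, and the log2 fold changes were -0.35 ± 0.045 (adjusted p = 1.77e-07) and 0.26 ± 0.043 (adjusted p = 0.000415).

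**Figure D2:**
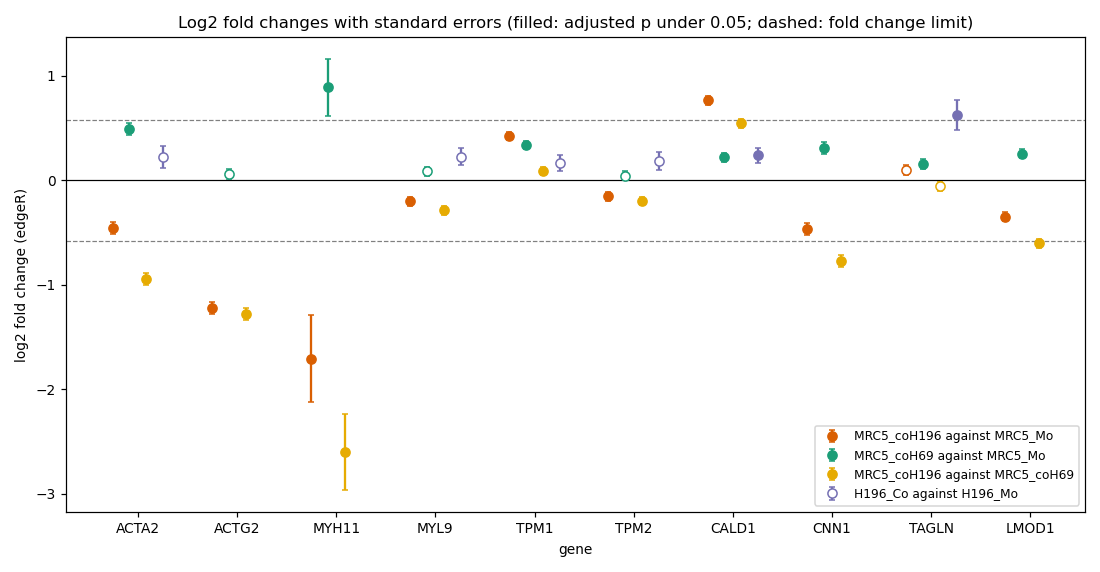
Log2 fold changes (vertical axis) with standard errors of the 10 genes (horizontal axis) in the 4 comparisons, filled where the adjusted p is under 0.05, with dashed lines at -0.58 and 0.58. All 10 values of MRC5_coH69 against MRC5_Mo are above 0, whereas MRC5_coH196 against MRC5_Mo ranges from -1.71 for MYH11 to 0.77 for CALD1.

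In MRC5_coH69 the contractile genes were shifted upwards by small amounts. Only MYH11 was called, where 0.554% of all tested genes were, and that call was lost when any of the 6 libraries of the comparison was left out (adjusted p from 0.0547 to 0.232). At an adjusted p under 0.05 alone, 7 genes were higher (ACTA2, MYH11, TPM1, CALD1, CNN1, TAGLN and LMOD1) and 0 lower, where 3.78% of all genes were higher and 2.93% lower. These 7 genes did not overlap with MRC5_Mo in CPM with TMM factors, which held for 13.6% of all genes on the higher side. The log2 fold changes of all 10 genes were above 0, with a median of 0.24, beside a median of about 0 for all genes (-3.36e-05), and so no member was lower at an unadjusted p under 0.05 either, nor with DESeq2. The MRC5_Mo libraries served in this comparison and in the preceding one, so the 2 sets of values are given side by side only.

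The direct comparison of MRC5_coH196 with MRC5_coH69, the non-NE against the NE partner, separated more of the contractile genes. Called were 5 of the 10 genes, all lower in MRC5_coH196, where 28.2% of all genes were called and 13.1% were called lower. ACTA2 was 0.520 times its level in MRC5_coH69 (log2 fold change -0.94 ± 0.058, adjusted p = 2.30e-13) and ACTG2 0.412 times (-1.28 ± 0.057, adjusted p = 5.27e-16). CNN1 differed by -0.77 ± 0.059 (adjusted p = 1.88e-11), LMOD1 by -0.60 ± 0.045 (adjusted p = 9.09e-12) and MYH11 by -2.60 ± 0.37 (adjusted p = 7.63e-07), with 11 counts against 76 over the libraries. MYL9 (-0.29) and TPM2 (-0.20) were also lower and CALD1 (0.55 ± 0.042) higher at an adjusted p under 0.05. TPM1 was 0.09 higher (adjusted p = 0.0455), a sign that turned to -0.07 with library totals and to -0.14 with FPKM, and TAGLN (-0.06, adjusted p = 0.275) did not pass. With both fold sides counted, 7 genes were lower and 2 higher at this threshold, where 36.6% and 35.7% of all genes were.

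The plot of the H196 co-culture response under 4 scalings shows how far these values rest on the scaling. TMM and DESeq2 size factors gave nearly the same values. Library totals and FPKM lowered every member except MYH11 on the FPKM scale, along with the median of all genes, so CALD1 and TPM1 remained above 0 and ACTA2, ACTG2, CNN1, LMOD1, MYL9 and TPM2 below 0 under each of the 4.

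**Figure D3:**
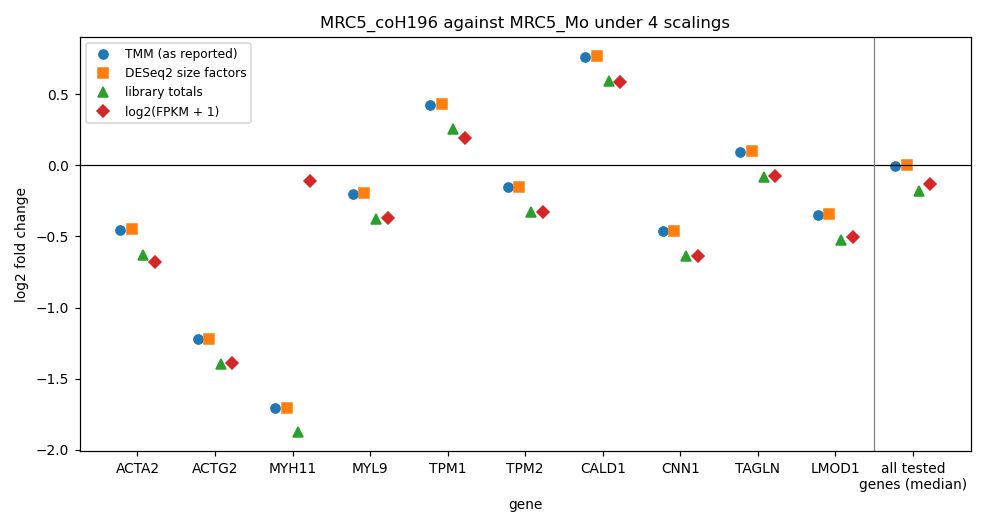
Log2 fold changes (vertical axis) of the 10 genes and the median of all tested genes (last position) in MRC5_coH196 against MRC5_Mo under 4 scalings. TAGLN is the member whose sign depends on the scaling (0.10 with TMM, -0.08 with library totals), and MYH11 shrinks to -0.11 on log2(FPKM + 1) because its FPKM values are far below the added 1.

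Ratios of members within a library do not depend on the scaling of that library. ACTG2 stood at 0.876 ± 0.023 of ACTA2 in MRC5_Mo, 0.644 ± 0.0044 in MRC5_coH69 and 0.533 ± 0.020 in MRC5_coH196. Both co-cultures thus had less ACTG2 per ACTA2, in MRC5_coH69 with more ACTA2 and in MRC5_coH196 with less of both. TPM2 per TPM1 was 3.02 ± 0.10 in MRC5_Mo, 2.47 ± 0.041 in MRC5_coH69 and 2.1 ± 0.070 in MRC5_coH196. CALD1 per CNN1, the pair of thin filament inhibitors, was 3.21 ± 0.059, 3.02 ± 0.35 and 7.60 ± 0.72 in the same order. TAGLN per ACTA2 was 1.81 ± 0.059, 1.42 ± 0.057 and 2.76 ± 0.042. Against the non-muscle actin ACTB, ACTA2 was 0.0586 ± 0.0038 in MRC5_Mo, 0.0832 ± 0.0040 in MRC5_coH69 and 0.0485 ± 0.0021 in MRC5_coH196. In a two-sided exact permutation test each of these differences from MRC5_Mo gave p = 0.1, the smallest that 3 against 3 libraries allow, apart from CALD1 per CNN1 in MRC5_coH69 (exact p = 0.4, overlapping libraries). Over the 20 comparisons of ratios that were made the smallest Benjamini-Hochberg adjusted p was 0.118, so none passed and none could.

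**Figure D4:**
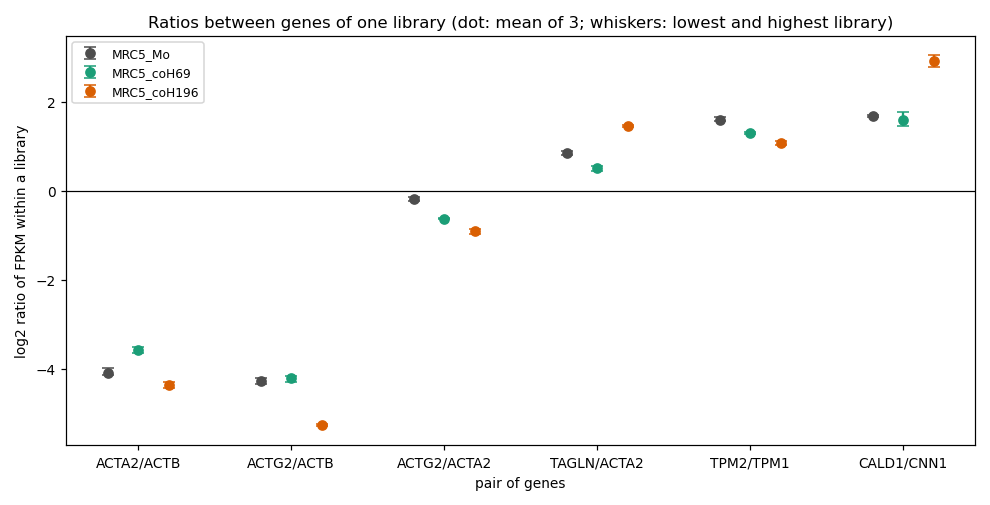
Log2 ratios of FPKM between pairs of genes within a library (vertical axis), as the mean of 3 libraries with whiskers from the lowest to the highest library, in MRC5_Mo, MRC5_coH69 and MRC5_coH196. ACTG2/ACTA2 and TPM2/TPM1 fall from MRC5_Mo over MRC5_coH69 to MRC5_coH196, and CALD1/CNN1 is high in MRC5_coH196 alone, at a mean of 2.92.

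H196 cells expressed only part of the contractile set. TPM2 had 401, 481 and 451 FPKM in H196_Mo and 492, 431 and 510.4 in H196_Co, and TPM1 172, 177 and 169.9 in H196_Mo and 195, 159 and 189 in H196_Co. The groups overlapped for both tropomyosins. CALD1 had 22.7, 19.7 and 20.8 FPKM in H196_Mo and 23.2, 23.2 and 24.3 in H196_Co, and MYL9 14.9, 16.7 and 16.3 in H196_Mo and 18.1, 16.6 and 18.4 in H196_Co. ACTA2 had 6.83, 7.13 and 7.27 FPKM in H196_Mo and 8.68, 7.70 and 7.24 in H196_Co, and TAGLN 1.19, 1.04 and 0.94 in H196_Mo and 1.53, 1.43 and 1.63 in H196_Co. ACTG2, CNN1 and LMOD1 had 0 to 3 counts in each H196 library and were not tested. A count of 3, the upper limit that a count of 0 allows, corresponds to 0.173 to 0.187 CPM in these libraries.

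TAGLN was the only member called in H196_Co against H196_Mo, where 3.86% of the 12806 tested genes were called, with 105, 96 and 108 counts against 76, 72 and 62 (log2 fold change 0.62 ± 0.14, 1.54 times, adjusted p = 0.00431). Without H196_Mo replicate 3 its log2 fold change was 0.54, under the fold limit (adjusted p = 0.0303). CALD1 was also higher at an adjusted p under 0.05 (0.24 ± 0.072, adjusted p = 0.0237). ACTA2 (0.22 ± 0.11, adjusted p = 0.15), MYL9 (0.23 ± 0.081, adjusted p = 0.0536), TPM1 (0.17 ± 0.078, adjusted p = 0.132) and TPM2 (0.19 ± 0.086, adjusted p = 0.130) did not pass. All 6 tested members had values above 0, so none was lower at an unadjusted p under 0.05 or with DESeq2, and at an adjusted p under 0.05 alone 2 of 6 were higher where 12% of all genes were higher and 7.78% lower.

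The responses of the partners of the H196 co-culture were compared in a model over both tables, as the log2 fold change in MRC5 cells minus that in H196 cells. Of the 6 members with counts in both lines 1 was called, where 24.7% of the 13573 genes were. ACTA2 differed by -0.70 ± 0.13 (adjusted p = 3.50e-05), TAGLN by -0.55 ± 0.15 (adjusted p = 0.00262), MYL9 by -0.45 ± 0.090 (adjusted p = 0.000119) and TPM2 by -0.37 ± 0.097 (adjusted p = 0.00230). CALD1 (0.50 ± 0.077, adjusted p = 4.81e-06) and TPM1 (0.23 ± 0.083, adjusted p = 0.0208) differed the other way. All 6 thus passed the adjusted p alone, 2 with a positive and 4 with a negative difference, as did 51.3% of all genes (24.1% positive and 27.1% negative). Members with at most 3 counts in every H196 library were left out, whereas genes outside the lists were not limited in this way, so the shares come from an unlike set.

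Among the factors that act on CArG boxes, SRF itself fell in MRC5_coH196 and its partner MYOCD rose in MRC5_coH69. SRF had 29.1, 28.3 and 29.2 FPKM in MRC5_Mo, 30.5, 29.7 and 27.7 in MRC5_coH69, and 15.3, 14.3 and 14.5 in MRC5_coH196. The MRC5_coH196 libraries lay far below the other groups (log2 fold change -0.76 ± 0.050, adjusted p = 7.81e-13), and MRC5_coH69 overlapped with MRC5_Mo (0.05 ± 0.047, adjusted p = 0.604). MYOCD, myocardin, had 3.39, 3.35 and 3.45 FPKM in MRC5_Mo, 5.68, 5.51 and 5.16 in MRC5_coH69, and 3.15, 3.30 and 3.39 in MRC5_coH196. It was 0.70 ± 0.058 higher in MRC5_coH69 (adjusted p = 1.05e-08), and its value of 0.12 ± 0.062 in MRC5_coH196 did not pass (adjusted p = 0.0764) and turned to as low as -0.05 under the other settings. MRTFB fell by 0.25 on the log2 scale in MRC5_coH196 (adjusted p = 0.00312), and MRTFA had -0.09 ± 0.061 there (adjusted p = 0.181). In H196 cells SRF (26.9 FPKM in H196_Mo and 27.3 in H196_Co) had a log2 fold change of 0.09 ± 0.072 (adjusted p = 0.428). Of the 16 genes of the SRF list, 9 were higher and 2 lower in MRC5_coH196 at an adjusted p under 0.05, where 37.2% and 37.1% of all genes were. GATA6, named after its values were seen since its mean is 9.80 CPM, had the highest value (1.70 ± 0.11), and of the genes with at least 10 CPM MEF2D (1.11 ± 0.049) and FHL1 (0.97 ± 0.050) led. In MRC5_coH69, 5 were higher and 0 lower, where 3.78% and 2.93% of all genes were (1 lower at an unadjusted p under 0.05, and 0 lower with DESeq2).

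**Figure D5:**
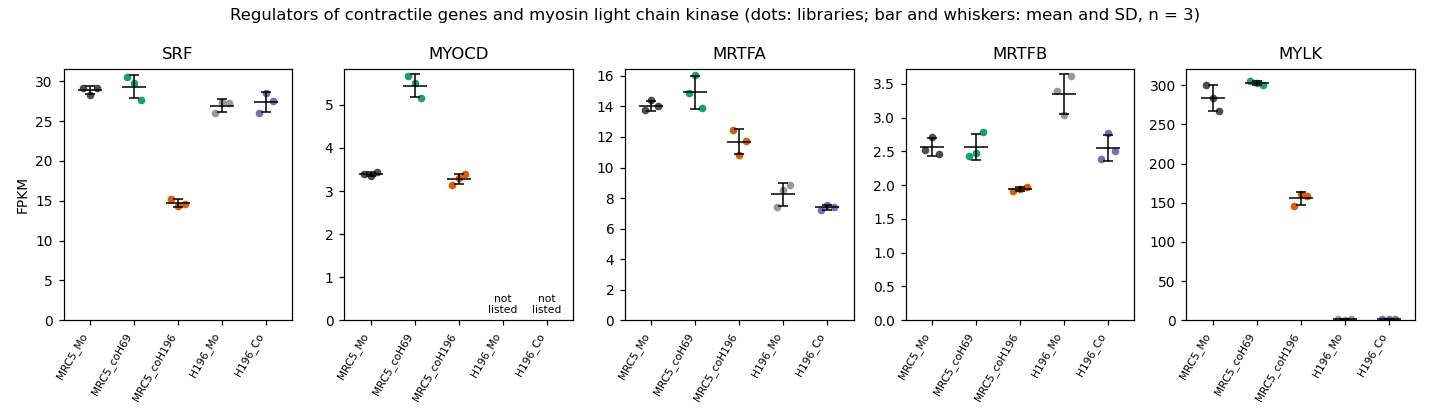
FPKM (vertical axes, linear, each from 0) of SRF, MYOCD, MRTFA, MRTFB and MYLK in each library (dots) of the 5 groups, with mean and SD of 3 libraries. SRF and MYLK are low in MRC5_coH196 (14.7 and 156 FPKM) against MRC5_Mo (28.8 and 284 FPKM), and MYOCD is high in MRC5_coH69 alone (5.45 FPKM).

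The enzymes that set myosin phosphorylation moved with less unity. MYLK, myosin light chain kinase, had 301, 284 and 268 FPKM in MRC5_Mo, 306, 302 and 299.9 in MRC5_coH69, and 147, 162 and 159 in MRC5_coH196. Its level in MRC5_coH196 was below all other MRC5 libraries (-0.65 ± 0.043, adjusted p = 8.69e-13), and MRC5_coH69 overlapped with MRC5_Mo (0.08 ± 0.042, adjusted p = 0.274). Of the 17 genes of this list, 10 were higher and 5 lower in MRC5_coH196 at an adjusted p under 0.05, where 37.2% of all genes were higher and 37.1% lower, among the latter ARHGEF11 (-0.53 ± 0.051), a guanine nucleotide exchange factor. In MRC5_coH69, 2 were higher, where 3.78% of all genes were, and 0 lower (also 0 lower at an unadjusted p under 0.05 and with DESeq2), led by PPP1R12B (0.82 ± 0.055, adjusted p = 2.76e-10), a myosin phosphatase subunit. Its values were 3.63, 3.84 and 3.33 FPKM in MRC5_Mo and 6.26, 6.09 and 6.08 in MRC5_coH69, without overlap. In H196_Co, 2 of 16 tested genes were higher, RHOB (0.59 ± 0.092) and PPP1R14B (0.50 ± 0.079), and 0 lower (2 at an unadjusted p under 0.05, and 0 with DESeq2). Among all genes 12% were higher and 7.78% lower there, so the higher share is near that of all genes.

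Of the genes of the smooth muscle cytoskeleton outside the 10, 18 of 20 listed were tested. In MRC5_coH196, 7 were higher and 9 lower at an adjusted p under 0.05, where 37.2% and 37.1% of all genes were, so the higher share is near that of all genes, with TNS1 (1.29 ± 0.054) and PGM5 (0.65 ± 0.084), proteins of cell adhesions, at the upper end and ZYX (-0.61 ± 0.047), zyxin, and SYNM (-0.60 ± 0.094), the intermediate filament protein synemin, at the lower. In MRC5_coH69, 4 were higher, where 3.78% of all genes were, and 0 lower (also 0 lower at an unadjusted p under 0.05 and with DESeq2), led by SYNPO2 (0.31 ± 0.069). The list's median was -0.15 in MRC5_coH196 and 0.11 in MRC5_coH69. In H196_Co, 2 were higher (ZYX, 0.46 ± 0.066, and FLNA, 0.34 ± 0.082) and 1 lower (SYNM, -0.74 ± 0.072) of 14 tested, both near the shares of all genes (12% and 7.78%).

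Of the non-muscle counterparts of the members, 16 were tested, and 8 were higher and 5 lower in MRC5_coH196 at an adjusted p under 0.05, where 37.2% and 37.1% of all genes were, so the lower share is near that of all genes. MYH9, the main non-muscle heavy chain, rose by 0.54 ± 0.046, and TMOD3, a tropomodulin related to LMOD1, by 0.64 ± 0.049. TPM3, a non-muscle tropomyosin, fell by 0.50 on the log2 scale and CNN2, a non-muscle calponin, by 0.45, while TPM4 had 0.01 ± 0.039 (adjusted p = 0.866). ACTB fell by 0.24 (SE 0.049, adjusted p = 0.000106) and ACTG1 had 0.04 ± 0.045 (adjusted p = 0.462). In MRC5_coH69, 1 was higher (MYL12A, 0.16 ± 0.047, adjusted p = 0.0437) and 1 lower (TAGLN2, -0.18 ± 0.050, adjusted p = 0.0284), where 3.78% and 2.93% of all genes were. In H196_Co, 7 of 17 were higher and 0 lower, where 12% and 7.78% of all genes were. The lower side also held 0 at an unadjusted p under 0.05 and with DESeq2, 5 values being below 0. The higher genes were led by ACTG1 (0.55 ± 0.076, adjusted p = 3.51e-05) and ACTB (0.34 ± 0.071, adjusted p = 0.00250). Of the 16 striated muscle counterparts, 3 passed the filter on low counts in MRC5 cells, and all 3 passed the test in MRC5_coH196, TNNT1 and TNNC1 higher and ACTC1 lower, against 2 of the 3 with DESeq2. TNNT1 and TNNC1 are named after their values were seen, since their means in MRC5 cells are under 10 CPM. TNNT1, the slow skeletal troponin T, had 1.35, 1.14 and 1.29 FPKM in MRC5_Mo, 1.48, 1.3 and 1.83 in MRC5_coH69, and 8.54, 10.64 and 8.83 in MRC5_coH196, where it was far above the other groups (log2 fold change 3.07 ± 0.18, adjusted p = 5.87e-14). H196 cells held more of it, 88.4 ± 8.04 FPKM in H196_Mo and 98.0 ± 2.24 in H196_Co. The 95 genes used to trace H196 RNA summed to 23.7 to 61.8 CPM in MRC5_coH196 and to 7747 to 8033 CPM in H196_Mo. What part H196 RNA had in the rise of TNNT1 was not tested. ACTA1 had at most 2 counts in an MRC5 library, and ACTC1 had 5, 23 and 32 counts in MRC5_Mo, 15, 8 and 14 in MRC5_coH69 and 8, 3 and 8 in MRC5_coH196. Its groups overlapped, and its log2 fold change in MRC5_coH196 was -1.48 ± 0.49 (adjusted p = 0.00871).

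Other groups tied to myofibroblasts did not share the direction of ACTA2 throughout. Of the 12 TGF-β genes, 10 were higher and 0 lower in MRC5_coH196 at an adjusted p under 0.05 (1 lower at an unadjusted p under 0.05, and 0 with DESeq2), where 37.2% of all genes were higher and 37.1% lower. Among the higher was SMAD7 (1.32 ± 0.065), the feedback inhibitor. In MRC5_coH69, 4 were higher, where 3.78% of all genes were, led by TGFB2 (0.80 ± 0.067). Of the 10 matrix genes, 7 were lower in MRC5_coH196, where 37.1% of all genes were, with COL1A1 at -1.57 ± 0.044 and COL3A1 at -2.09 ± 0.054. Another 3 were higher, near the share of all genes (37.2%), with COL11A1 at 0.68 ± 0.045 and FN1 at 0.38 ± 0.043. In MRC5_coH69, 5 matrix genes were higher, where 3.78% of all genes were, led by COL5A1 (0.28 ± 0.045), and all 10 values were above 0. The markers of smooth muscle cells and pericytes that are no members summed to 939 to 1025 CPM in MRC5_Mo, 893 to 995 CPM in MRC5_coH69 and 1081 to 1145 CPM in MRC5_coH196, with 9 or 10 of 10 above 1 CPM in every library of a group. NOTCH3 carried the higher sum (156 CPM in MRC5_Mo and 360 CPM in MRC5_coH196 on average). At an adjusted p under 0.05, 3 of the 10 were higher and 3 lower in MRC5_coH196, both near the shares of all genes (37.2% and 37.1%). RGS5 was lowest (-1.05 ± 0.10), and the median was 0.02. What part these smooth muscle and pericyte markers had in the results was not tested.

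The genes whose levels followed ACTA2 most closely over the 9 MRC5 libraries were sought among 9226 genes with a mean of at least 10 CPM, as a description, since the libraries fall into 3 groups and share their scaling. By Pearson's r of log2 CPM, IRAG1 (0.984), CNN1 (0.983), CCL2 (0.976), LMOD1 (0.975) and TAPBP (0.969) came first, so 2 of these 5 were members. IRAG1, a target of cGMP-dependent kinase that limits calcium release in smooth muscle, had 14.3 ± 0.84 FPKM in MRC5_Mo, 17.5 ± 1.12 in MRC5_coH69 and 9.94 ± 0.24 in MRC5_coH196. CCL2, a monocyte chemokine, had 52.5 ± 2.0, 84.5 ± 3.72 and 29.8 ± 1.02 FPKM, with log2 fold changes of 0.68 ± 0.060 in MRC5_coH69 and -0.65 ± 0.070 in MRC5_coH196. TAPBP moved little despite its high r, by 0.10 ± 0.041 in MRC5_coH69 (adjusted p = 0.137) and -0.08 ± 0.041 in MRC5_coH196 (adjusted p = 0.0873). Only the direct comparison of the co-cultures passed for TAPBP (-0.18 ± 0.041, adjusted p = 0.000345). Among the other members r was 0.954 for MYL9, 0.881 for TPM2, 0.874 for ACTG2, 0.413 for TAGLN, -0.17 for TPM1 and -0.67 for CALD1, and MYH11 was under the CPM limit. The members thus ran from genes that shared the order of ACTA2 over the groups to CALD1, whose order was the reverse between MRC5_Mo and MRC5_coH196.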

How the data were processed

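RNA of the 5 groups was sequenced by the study on a BGIseq instrument. Reads were filtered by the authors with SOAPnuke and mapped with HISAT2 (2.1.0 in the submitters' processing notes) to GRCh38.p13 and with Bowtie2 2.3.4.3 to the reference genes, and RSEM 1.3.1 is also named there. Per gene and library, the authors deposited an expected count, which is an unnormalized estimate of the reads, and 93.7% (MRC5) and 92.1% (H196) of these values were whole. The deposited FPKM values are the authors' and scale by gene length and library. The 18 MRC5 and 12 H196 per-library columns of other units and the authors' own fold changes and p-values were not used.

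After rounding, the counts were modelled with edgeR 4.0.16 in R 4.3.3 (TMM factors 0.916 to 1.05, filterByExpr, quasi-likelihood tests, two-sided, Benjamini-Hochberg over all tested genes). The 9 MRC5 libraries shared a model, the 6 H196 libraries another, and the comparison of responses a model over genes in both tables. From its results, members and other listed genes with at most 3 counts in every H196 library were left out, but genes outside the lists were not. Standard errors were derived from the fold change and the F statistic. Alternatives were DESeq2 1.42.0, limma 3.58.1 on log2(FPKM + 1) and log2(FPKM + 0.1), other scalings, filters and fold limits, the replicate number as a block, and each library left out in turn. The tests were tried on simulated data. Genes used to trace H196 RNA reached 20 CPM in all H196 libraries and stayed under 0.5 CPM in all MRC5_Mo libraries. Marker sums use library totals.

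The members and gene lists were chosen with earlier results of these data known. Beside all members, the text names per list and comparison at most the 2 most raised and the 2 most lowered genes at adjusted p under 0.05 and at least 10 CPM, the regulators and near-identical paralogs by role, and the 5 genes most like ACTA2. Some of the genes this rule names are not reported here. The strand given in the tables was not used. MYH11 is placed on an alternate contig there, so its position is not given.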

Additional observations from a re-analysis of the deposited data

Results flagged for a closer look

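The response of MRC5 cells to H196 differed from the response of H196 cells to MRC5 in an edgeR model over both tables for each of the 6 members with counts in both lines. The difference of the log2 fold changes was -0.70 for ACTA2, -0.55 for TAGLN, -0.45 for MYL9 and -0.37 for TPM2, where MRC5 cells had the lower value, and 0.23 for TPM1 and 0.50 for CALD1, where MRC5 cells had the higher value. A difference past the adjusted p of 0.05 was found for 51.3% of all 13573 genes, which were not limited by their counts in H196 cells as the members were.

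For 4 members MRC5_coH196 and MRC5_coH69 lay on opposite sides of MRC5_Mo, each past an adjusted p of 0.05, and the direct test between the co-cultures gave log2 fold changes of -0.94 for ACTA2, -0.77 for CNN1, -0.60 for LMOD1 and -2.60 for MYH11. By the same threshold 37.1% of all genes were lower in MRC5_coH196 and 3.78% higher in MRC5_coH69. The share of all genes that did both was not counted. The MYH11 value rests on 3 to 31 counts per library, and its side in MRC5_coH69 (adjusted p = 0.0473) no longer passed when any of the 6 libraries was left out (0.0547 to 0.232) or with the replicate block (0.0622).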

How the results depend on the processing

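Members called in MRC5_coH196 against MRC5_Mo numbered 3, which became 5 with library totals without TMM factors or limma on log2(FPKM + 0.1), 4 with limma on log2(FPKM + 1), 9 without a limit on the fold change, and 2 with at least 10 counts in every library or a limit of 1. The MYH11 call was lost there with at least 10 counts in every library, where it was not tested, and with limma on log2(FPKM + 1) (log2 fold change -0.11), and the CALD1 call with a limit of 1. In MRC5_coH69 against MRC5_Mo the count of 1 became 0 with the DESeq2 Wald test, no filter on low counts, at least 10 counts in every library, both limma fits, a limit of 1 and each library left out (0 to 0), and 7 without a limit. In MRC5_coH196 against MRC5_coH69 the count of 5 became 9 without a limit, 2 with a limit of 1, and 4, without MYH11, with at least 10 counts in every library or limma on log2(FPKM + 1), and leaving out a library gave 5 to 6. In H196_Co against H196_Mo the count of 1 became 0 with library totals, both limma fits and a limit of 1, and 2 without a limit, and leaving out a library gave 0 to 1. For the difference of the responses the count of 1 became 2 with library totals, 6 without a limit and 0 with a limit of 1, and leaving out a library gave 1 to 2. TAGLN in MRC5_coH196 against MRC5_Mo turned to -0.078 with library totals and -0.077 with both limma fits. TPM1 in MRC5_coH196 against MRC5_coH69 turned to -0.073 with library totals and -0.14 with both limma fits. ACTG2 in MRC5_coH69 against MRC5_Mo ranged from -0.014 (without MRC5_coH69 replicate 1) to 0.14 when a library was left out. Library totals also moved the calls over all genes, from 2207 higher and 1885 lower to 1530 and 2978 in MRC5_coH196 against MRC5_Mo, from 1943 and 1675 to 1369 and 2627 against MRC5_coH69, and from 417 and 77 to 320 and 141 in H196_Co, and limma on log2(FPKM + 1) moved the difference of the responses from 1643 and 1713 to 821 and 1556.

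No pairing by replicate number was seen, as same-numbered libraries of a cell line deviated from their group means with correlations from -0.15 to 0.081. With 3 libraries per group this cannot exclude a shared batch. The check did not set MRC5 libraries against H196 libraries. With the replicate number as a block the MYH11 call in MRC5_coH69 was lost (adjusted p = 0.0622), which makes 0 members called there, and no other count of members changed. Depth limits MYH11 in MRC5 cells and ACTG2, CNN1 and LMOD1 in H196 cells. The causes of these changes were not tested.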
